A study of Mus musculus with 15 samples.

Results

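The transcriptional response to induced Atf3 was measured in adult mouse hippocampal neural precursor cells by comparing 10 of the 15 RNA sequencing libraries of the study, 5 of a line that carries an inducible Atf3 cassette and 5 of a control line. The libraries were taken by the construct named in their titles, and the comparison covers all genes measured in them. The precursor cells came from the hippocampus of female mice aged 6 weeks and grew as adherent monolayers with FGF2 and EGF. A piggyBac transposon had placed in their genome the Tet-On 3G transactivator driven by an SV40 promoter, a puromycin resistance gene and, in the Atf3 line, the Atf3 coding sequence behind the doxycycline-responsive TRE3G promoter. The control line carried the cassette without an Atf coding sequence. A line with Atf4 in its place is used below only to show where values differ or are alike. All lines lost EGF and FGF and received doxycycline at 100 ng/ml at the same moment, the start of differentiation, and were harvested 10 h later. Each construct is represented by 1 stable line, so the effect of Atf3 and any other property of that line cannot be told apart. Whether the libraries of a line came from separate cultures is not said in the labels. The p-values measure only how far these samples spread, and that spread may be technical.

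Atf3 encodes a basic leucine zipper transcription factor. It is a classical stress-inducible gene and in neurons is best known as part of the response to axon injury. As a homodimer Atf3 is known mainly as a repressor, and with partners such as Jun it can activate, binding CRE and AP-1 sites. Hippocampal precursor cells stop dividing and turn on glial and neuronal genes once the growth factors are withdrawn. The libraries were taken early in that transition.

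Libraries held 53.7 to 65.4 M counts for the control line and 56.8 to 65.1 M for the Atf3 line. At this similar depth 26419 to 27247 genes had a count in control libraries and 24343 to 24916 in Atf3 libraries. Levels are given as CPM, read counts in parts per M of the library total scaled by TMM (a scaling that assumes most genes to be level), and as mean ± SD with n = 5 per line. Changes are log2 fold changes of the Atf3 line minus the control line with their standard error (SE), and a gene was called at an adjusted p under 0.05 in edgeR's quasi-likelihood test. Levels of different genes are not compared, since CPM is not corrected for length.

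Atf3 itself (ENSMUSG00000026628, GRCm38 chr1:191170296-191218039) was at 1.67, 3.02, 1.85, 10.99 and 7.55 CPM in control replicates 1 to 5 and 1919, 2106, 1771, 1949 and 1961 CPM in Atf3 replicates 1 to 5. Every Atf3 library was far above every control library, in the direction its label gives. The difference was 379-fold (log2 fold change 8.57 ± 0.46 SE, edgeR adjusted p = 1.8e-09). Control replicates 4 and 5 held the most Atf3 of that line, and without them the log2 fold change was 9.79. Counts per gene do not separate the cassette's transcript from the endogenous one. Atf4, which encodes the related factor that drives the amino acid response, was at 83.2 ± 6.75 CPM in control libraries and 250.3 ± 16.5 CPM in Atf3 libraries (log2 fold change 1.59 ± 0.09 SE, edgeR adjusted p = 1.0e-10).

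Most of the measured transcriptome differed between the lines. Of 18244 genes tested, 13328 were called (73.1%), 6711 higher (36.8%) and 6617 lower (36.3%) in the Atf3 line. Most of these differences were small. The median size of a called change was 0.55 on the log2 scale, and 7001 called genes changed by less than 1.5-fold. With the further demand of at least a 2-fold change, 3191 genes remained (17.5%), 1300 higher (7.13%) and 1891 lower (10.4%). At least 4-fold changes were called in 234 higher and 417 lower genes, and at least 8-fold changes in 59 and 101. In 11078 genes (60.7%) the 2 lines did not overlap, with all Atf3 libraries above all control libraries in 32% of tested genes and below them in 28.7%. The balance of directions depended on the scaling: 50.4% of called genes were higher with TMM, 39.98% with upper-quartile scaling and 38.4% with plain library totals. Among genes changed at least 2-fold these shares were 40.7, 31.2 and 30.1%. Both alternatives lowered the median of all tested genes, from -0.02 to -0.14 and -0.16, so a change smaller than about this shift has no settled direction.

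The genes that fell at least 2-fold were mostly scarce ones. Their median level over both lines was 0.680 CPM, against 10.99 CPM for the genes that rose at least 2-fold. Among the 9942 genes with a mean of at least 10 CPM the balance was the other way, with 666 at least 2-fold higher and 320 at least 2-fold lower. The count of genes at least 2-fold lower was 3134 when no genes were filtered out and 998 when 1 CPM in 5 libraries was required.

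**Figure D1:**
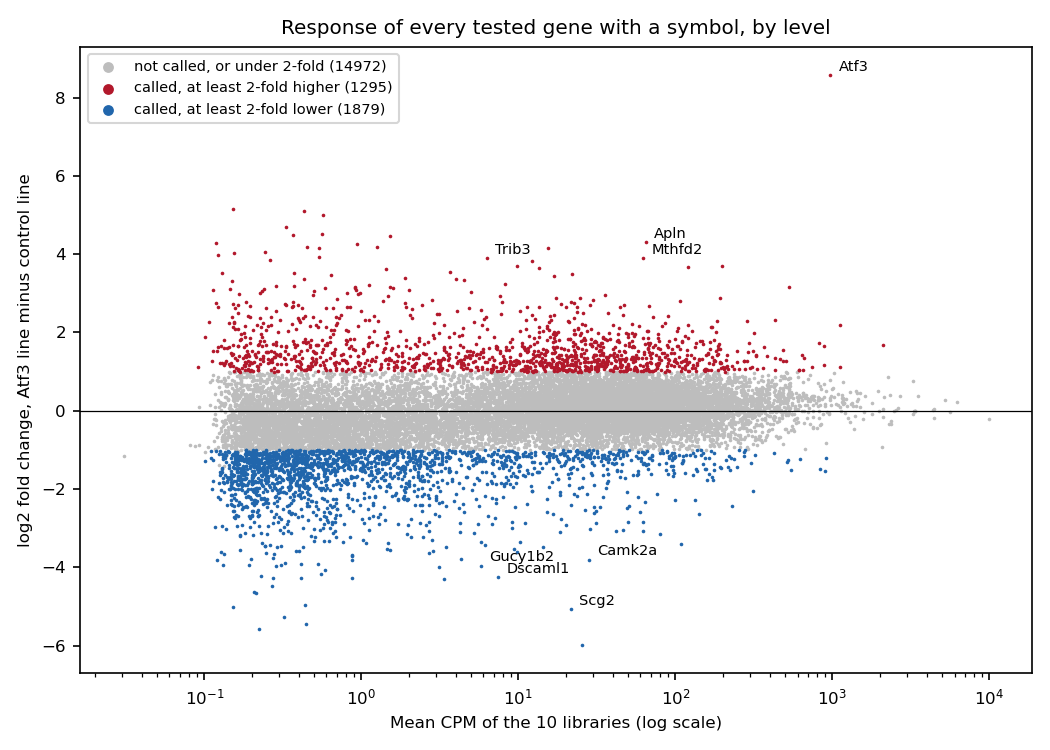
Each point is 1 tested gene with a symbol, with its mean level over the 10 libraries (CPM, log scale) across and its log2 fold change, Atf3 line minus control line, upward. Colours mark genes called with at least a 2-fold change. The blue points of fallen genes crowd at low levels, the red points of risen genes spread over the middle, and Atf3 stands alone at 8.57.

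Among called coding genes of at least 4 CPM whose lines do not overlap, the 12 largest rises and the 12 largest falls are described first. Apln (apelin, a secreted peptide ligand of a G protein-coupled receptor; ENSMUSG00000037010, GRCm38 chrX:48025146-48034853) was at 5.51, 5.64, 6.57, 6.71 and 6.58 CPM in control replicates 1 to 5 and 136, 101, 148, 122 and 112 CPM in Atf3 replicates 1 to 5. It rose 19.96-fold (log2 fold change 4.32 ± 0.17 SE, edgeR adjusted p = 3.4e-11). Trib3, a pseudokinase of the stress response, was at 0.642, 0.734, 0.949, 0.757 and 0.830 CPM in control replicates 1 to 5 and 11.4, 9.06, 11.3, 15.3 and 11.9 CPM in Atf3 replicates 1 to 5. It rose 15.04-fold (log2 fold change 3.91 ± 0.35 SE, edgeR adjusted p = 1.6e-07), from a control level of under 1 CPM in each library. Mthfd2, a mitochondrial enzyme of folate metabolism, rose 15.03-fold from 7.75 ± 0.542 to 117 ± 10.5 CPM (log2 fold change 3.91 ± 0.20 SE, edgeR adjusted p = 5.0e-10). Gdf15, a circulating stress hormone of the TGF-beta superfamily, rose 11.2-fold from 3.60 ± 0.718 to 40.7 ± 5.86 CPM (log2 fold change 3.49 ± 0.21 SE, edgeR adjusted p = 2.9e-09). Stc2, which encodes the secreted glycoprotein stanniocalcin 2, rose 9.36-fold from 1.59 ± 0.284 to 14.9 ± 1.93 CPM (log2 fold change 3.23 ± 0.26 SE, edgeR adjusted p = 3.6e-08). The cationic amino acid transporter gene Slc7a1 rose 12.8-fold from 17.5 ± 1.27 to 224 ± 26.2 CPM (log2 fold change 3.68 ± 0.25 SE, edgeR adjusted p = 1.5e-08).

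Another 5 of the 12 largest rises were Ccnd2, Ccnd1, Cdc6, Cdt1 and Ung. Ccnd2 (a D-type cyclin that starts G1 progression; ENSMUSG00000000184, GRCm38 chr6:127125162-127152193) was at 25.3, 29.6, 30.1, 27.0 and 29.5 CPM in control replicates 1 to 5 and 378, 310.4, 446, 349.8 and 349 CPM in Atf3 replicates 1 to 5. It rose 12.9-fold (log2 fold change 3.69 ± 0.20 SE, edgeR adjusted p = 1.7e-09). Ccnd1, a second D-type cyclin, rose 8.999-fold from 106.7 ± 20.5 to 960.0 ± 113 CPM (log2 fold change 3.17 ± 0.22 SE, edgeR adjusted p = 2.2e-08). Cdc6 and Cdt1, which load the replicative helicase onto origins, were at 1.19 to 1.97 CPM in control libraries and 20.5 to 24.7 CPM in Atf3 libraries for Cdc6 and at 2.65 to 3.46 CPM in control libraries and 27.0 to 33.9 CPM in Atf3 libraries for Cdt1. Their changes were 3.82 ± 0.14 SE and 3.43 ± 0.12 SE on the log2 scale (edgeR adjusted p = 3.1e-13 and 2.6e-13). Ung, a glycosylase that removes uracil from DNA, rose 12.5-fold from 2.02 ± 0.276 to 25.2 ± 1.92 CPM (log2 fold change 3.64 ± 0.15 SE, edgeR adjusted p = 2.2e-12). The lines did not overlap in any of these genes, as the rule that named them asks.

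On the falling side, Scg2 (secretogranin II, a protein of dense-core granules; ENSMUSG00000050711, GRCm38 chr1:79434669-79440120) was at 46.4, 47.2, 38.6, 38.4 and 38.8 CPM in control replicates 1 to 5 and 1.31, 1.53, 1.001, 1.30 and 1.09 CPM in Atf3 replicates 1 to 5. It fell to a level 33.7-fold lower (log2 fold change -5.07 ± 0.16 SE, edgeR adjusted p = 1.4e-13), the largest fall among coding genes of at least 4 CPM. Camk2a, a subunit of calcium- and calmodulin-dependent kinase II, was at 48.5, 51.5, 52.98, 55.9 and 53.05 CPM in control replicates 1 to 5 and 3.51, 4.84, 3.92, 3.29 and 3.23 CPM in Atf3 replicates 1 to 5. It was 13.9-fold lower (log2 fold change -3.80 ± 0.18 SE, edgeR adjusted p = 1.2e-10). Dscaml1, an immunoglobulin-family adhesion molecule, was 18.96-fold lower (14.1 to 0.747 CPM, log2 fold change -4.24 ± 0.19 SE, edgeR adjusted p = 3.0e-12). Gucy1b2, a beta subunit of soluble guanylate cyclase, fell from 10.9 ± 0.980 to 0.704 ± 0.222 CPM (log2 fold change -3.95 ± 0.32 SE, edgeR adjusted p = 3.4e-08). The death-associated kinase gene Dapk2 fell from 8.02 ± 0.184 to 0.586 ± 0.103 CPM (log2 fold change -3.78 ± 0.15 SE, edgeR adjusted p = 3.1e-14). Plin3, which coats lipid droplets, fell from 17.2 ± 1.51 to 1.4997 ± 0.372 CPM (log2 fold change -3.53 ± 0.25 SE, edgeR adjusted p = 8.7e-09). Fbxo32, the F-box subunit of an ubiquitin ligase known from muscle wasting, fell from 26.5 ± 0.927 to 2.39 ± 0.516 CPM (log2 fold change -3.48 ± 0.18 SE, edgeR adjusted p = 1.7e-10).

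The other 5 of the 12 largest falls were Hes5, Draxin, Abca13, Slc5a4a and Fosb. Hes5, a bHLH repressor and Notch target, was at 11.55, 10.5, 10.3, 11.4 and 12.3 CPM in control replicates 1 to 5 and 0.758, 1.42, 0.632, 1.60 and 0.795 CPM in Atf3 replicates 1 to 5 (log2 fold change -3.44 ± 0.28 SE, edgeR adjusted p = 4.6e-08). Draxin, a secreted axon guidance protein, was at 187 to 214 CPM in control libraries and 12.5 to 26.4 CPM in Atf3 libraries (log2 fold change -3.40 ± 0.30 SE, edgeR adjusted p = 2.5e-07), and its spread was wider in the Atf3 line, with replicates 2 and 4 highest. The ABC transporter gene Abca13 fell from 18.6 ± 3.26 to 1.80 ± 0.659 CPM and the sodium-glucose transporter family gene Slc5a4a from 10.6 ± 1.56 to 1.02 ± 0.378 CPM, with log2 fold changes of -3.36 ± 0.20 SE and -3.35 ± 0.18 SE (edgeR adjusted p = 3.9e-10 and 1.5e-11). Fosb, an AP-1 subunit, was at 2.39, 6.05, 2.69, 48.7 and 30.2 CPM in control replicates 1 to 5 and 1.15, 1.44, 1.16, 2.25 and 1.46 CPM in Atf3 replicates 1 to 5. Its fall (log2 fold change -3.60 ± 0.84 SE, edgeR adjusted p = 0.0018) was largest against control replicates 4 and 5, and without them it was -1.32 ± 0.28 SE, edgeR adjusted p = 8.2e-04. The kit marked no strand, and 31.8% of the exon bases of Hes5 and 23.4% of those of Ccnd1 lie under another annotated gene, so reads of that gene may be among theirs.

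**Figure D2:**
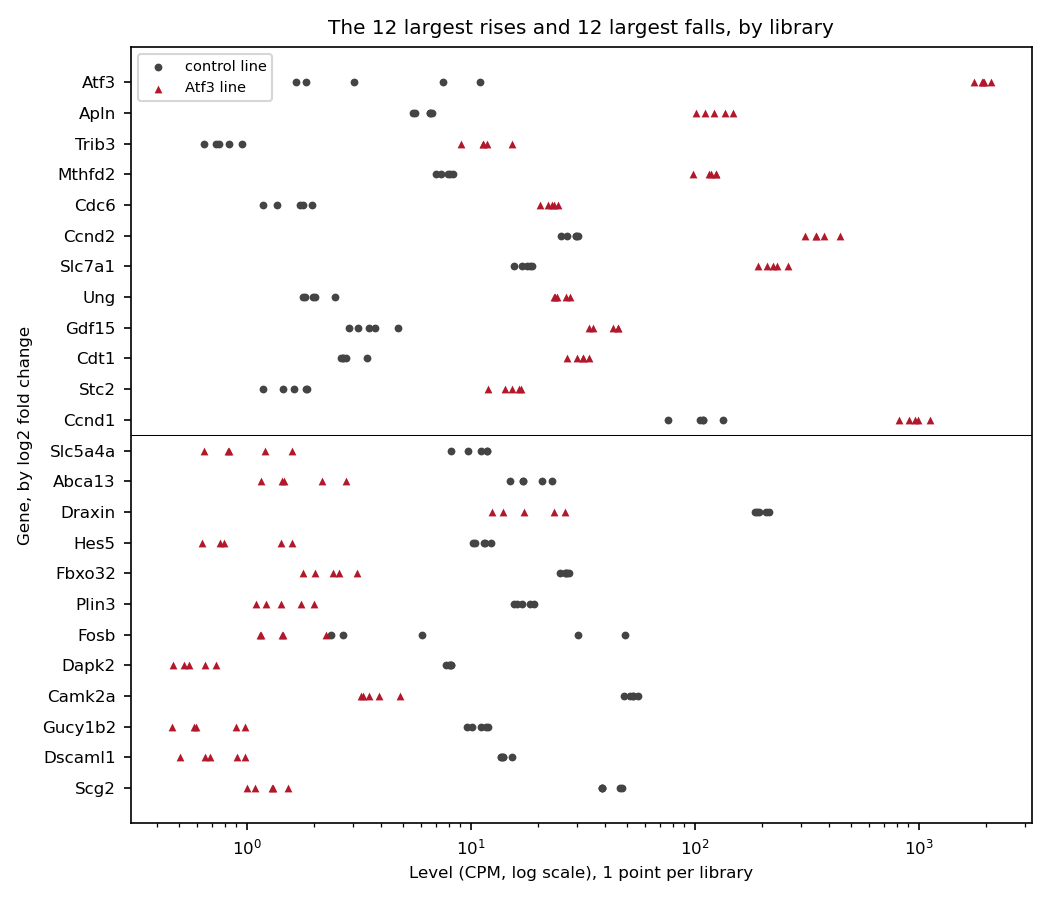
Levels (CPM, log scale) of the 12 largest rises and 12 largest falls among called coding genes of at least 4 CPM, 1 point per library, ordered by log2 fold change. The red triangles of the Atf3 line and the grey circles of the control line are apart in each gene, as the rule that named them asks. In Fosb the circles reach down to 2.39 CPM, next to the highest triangle at 2.25 CPM.

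The Atf4 line was set beside these 24 genes as a description. They were chosen for extreme values in the Atf3 libraries, which also enter the comparison with the Atf4 line, so nothing is read from how many of them differ there. The 2 transgenic lines differed at an adjusted p under 0.05 in edgeR's test in 22 of the 24, and in 43.3% of all tested genes. Cdc6 and Fosb were without a call. In 22 of the 24 the mean of the Atf4 line lay between those of the control line and the Atf3 line. Apln, for example, was at 44.5 CPM in the Atf4 line and Scg2 at 6.99 CPM.

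Among abundant genes (mean of at least 100 CPM) the largest rises beyond those above were Peg10, Nampt, Kcnc1, Dusp6, Pou3f1 and Tnc. Nampt, the rate-limiting enzyme of NAD salvage, was at 26.0, 26.1, 27.8, 25.1 and 30.4 CPM in control replicates 1 to 5 and 179.9, 184, 196, 182 and 201 CPM in Atf3 replicates 1 to 5. The libraries of each line were close together, and Nampt was 6.97-fold higher (log2 fold change 2.80 ± 0.06 SE, edgeR adjusted p = 1.3e-16). In the Atf4 line it was at 38.3 CPM and differed from the Atf3 line by 2.30 on the log2 scale (edgeR adjusted p = 3.4e-15). Peg10, an imprinted gene derived from a retrotransposon, rose from 46.3 ± 3.03 to 339.8 ± 60.4 CPM (log2 fold change 2.88 ± 0.22 SE, edgeR adjusted p = 6.2e-08). Kcnc1, a voltage-gated potassium channel, rose from 145 ± 5.72 to 718 ± 53.9 CPM (log2 fold change 2.31 ± 0.12 SE, edgeR adjusted p = 3.6e-10). Tnc, the matrix protein tenascin C, rose from 43.2 ± 4.82 to 198 ± 26.4 CPM (log2 fold change 2.20 ± 0.22 SE, edgeR adjusted p = 8.3e-07). Dusp6, a phosphatase that dampens ERK, was at 44.1, 137, 90.5, 78.4 and 131 CPM in control replicates 1 to 5 and 509, 389, 563, 499 and 412 CPM in Atf3 replicates 1 to 5. The control libraries varied here, with replicate 1 lowest (log2 fold change 2.30 ± 0.37 SE, edgeR adjusted p = 9.5e-05). Abundant genes too were taken only if their lines did not overlap, so the gap between the lines is not a result.

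Falls of abundant genes followed. Zbtb20, a zinc finger factor known from hippocampal development, was at 355, 441, 441, 401 and 290.5 CPM in control replicates 1 to 5 and 48.2, 71.1, 86.7, 59.2 and 93.6 CPM in Atf3 replicates 1 to 5. It was 5.37-fold lower (log2 fold change -2.42 ± 0.23 SE, edgeR adjusted p = 4.7e-07). Apoe, the lipid carrier made by astrocytes, fell from 220.3 ± 19.4 to 45.3 ± 5.58 CPM (log2 fold change -2.28 ± 0.14 SE, edgeR adjusted p = 2.2e-09). Cnp, a myelin-associated phosphodiesterase, fell from 502 ± 26.0 to 122 ± 19.2 CPM (log2 fold change -2.04 ± 0.18 SE, edgeR adjusted p = 1.8e-07). Kremen1, a receptor for the Wnt antagonist Dkk1, fell from 269 ± 6.90 to 78.6 ± 4.38 CPM (log2 fold change -1.78 ± 0.06 SE, edgeR adjusted p = 3.6e-14). Tmem132b, Igsf9b, Rnf144a (a ubiquitin ligase), Pcmtd2 and Btg2 (an antiproliferative gene) completed this group, with log2 fold changes of -2.65, -1.78, -1.70, -1.65 and -1.61. The difference between the Atf4 and Atf3 lines did not pass the threshold in Tnc (edgeR adjusted p = 0.76) or Btg2 (edgeR adjusted p = 0.21).

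Lists of genes by function were compared next, written with earlier results of these data known, so their counts describe the response and do not test it. Each list stands beside all tested genes, of which 36.8% were higher and 36.3% lower, 7.13% and 10.4% by at least 2-fold, with a median of -0.02 over all and 0.12 over the 9942 of at least 10 CPM. A list near these values shows nothing about its members as a group. Among secreted factors 56 of 159 tested genes were higher (35.2%) and 62 lower (38.99%), shares near those of all genes. By at least 2-fold 29 were higher (18.2%) and 25 lower (15.7%). Several insulin-like growth factor binding proteins, which hold IGF outside the cell, were among those that rose. Igfbp3 rose from 399.6 ± 22.2 to 1829.8 ± 124 CPM (log2 fold change 2.20 ± 0.08 SE, edgeR adjusted p = 2.5e-13). Igfbp2 rose from 992 ± 45.1 to 3189.6 ± 320.3 CPM (log2 fold change 1.69 ± 0.06 SE, edgeR adjusted p = 6.0e-14). Igfbp4 rose from a low level, 0.590 to 3.60 CPM (log2 fold change 2.61 ± 0.14 SE, edgeR adjusted p = 1.0e-12). In the list of FGF, VEGF, PDGF and EGF family ligands 17 of 41 tested members were higher (41.5%) and 13 lower (31.7%), 9 and 3 of them by at least 2-fold. Their median was 0.03 (0.32 over the 13 of at least 10 CPM), which turned negative with upper-quartile scaling. Csf1, the macrophage growth factor, rose from 17.6 ± 0.790 to 69.0 ± 4.45 CPM and Vegfc, a lymphangiogenic growth factor, from 3.54 ± 0.530 to 11.04 ± 0.506 CPM (1.97 ± 0.08 SE and 1.64 ± 0.09 SE on the log2 scale, edgeR adjusted p = 1.6e-13 and 2.8e-12). The EGF receptor ligand gene Areg fell, 1.41 to 0.376 CPM (log2 fold change -1.90 ± 0.24 SE, edgeR adjusted p = 5.4e-07).

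Other genes of the secreted lists fell. Chgb, like Scg2 a granin, was at 47.0, 53.4, 54.1, 46.02 and 52.99 CPM in control replicates 1 to 5 and 5.73, 5.95, 7.54, 6.35 and 5.78 CPM in Atf3 replicates 1 to 5 (log2 fold change -3.01 ± 0.12 SE, edgeR adjusted p = 2.3e-12). Smoc1, a matricellular protein, was at 71.6 to 77.7 CPM in control libraries and 7.64 to 10.7 CPM in Atf3 libraries (log2 fold change -3.07 ± 0.16 SE, edgeR adjusted p = 4.3e-10), and its paralogue Smoc2 fell from 8.21 ± 0.509 to 2.26 ± 0.345 CPM (log2 fold change -1.87 ± 0.10 SE, edgeR adjusted p = 1.2e-12). Tnr (tenascin R, a matrix protein of the brain) fell from 35.5 ± 3.56 to 4.69 ± 0.666 CPM (log2 fold change -2.92 ± 0.10 SE, edgeR adjusted p = 3.2e-14), while the related Tnc rose as given above. Among BMP, GDF, TGF-beta and WNT ligands and their antagonists 8 of 42 tested members were higher (19%) and 21 lower (50%), 4 and 10 of them by at least 2-fold. Their median was -0.32 (-0.01 over the 13 of at least 10 CPM). Among neurotrophins and neuropeptides 9 of 21 tested members were higher (42.9%) and 8 lower (38.1%), 5 and 5 of them by at least 2-fold. Their median was 0.29 (0.32 over the 7 of at least 10 CPM). Among chemokines and interleukins 11 of 25 tested members were higher (44%) and 8 lower (32%), 7 and 2 of them by at least 2-fold. Their median was 0.17 (-0.29 over the 4 of at least 10 CPM). Among IGF-binding, CCN and matricellular proteins 11 of 30 tested members were higher (36.7%) and 12 lower (40%), 4 and 5 of them by at least 2-fold. Their median was -0.06 (0.18 over the 14 of at least 10 CPM). Wnt4 was at 109, 103, 105.4, 109 and 107.1 CPM in control replicates 1 to 5 and 19.004, 25.7, 14.5, 24.0 and 21.9 CPM in Atf3 replicates 1 to 5 (log2 fold change -2.34 ± 0.23 SE, edgeR adjusted p = 8.6e-07). The follistatin-like gene Fstl1 fell from 295 ± 21.2 to 124 ± 9.96 CPM (log2 fold change -1.25 ± 0.09 SE, edgeR adjusted p = 1.0e-08). Wnt7a rose from 16.2 ± 2.10 to 56.8 ± 2.06 CPM (log2 fold change 1.80 ± 0.08 SE, edgeR adjusted p = 1.5e-12) and Bmp7 from 32.3 ± 2.29 to 56.4 ± 4.95 CPM (log2 fold change 0.80 ± 0.06 SE, edgeR adjusted p = 1.0e-10).

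Receptor genes were called lower more often than higher. Of 265 tested receptors 85 were higher (32.1%) and 127 lower (47.9%), 29 (10.9%) and 49 (18.5%) of them by at least 2-fold, beside 7.13 and 10.4% of all genes. Their median was -0.20 over all levels and -0.06 over the 128 of at least 10 CPM. Receptor tyrosine kinases had the lowest median of the 77 lists: 11 of 44 tested members were higher (25%) and 24 lower (54.5%), 3 and 12 of them by at least 2-fold. Their median was -0.35 (-0.32 over the 27 of at least 10 CPM). Kdr, the main VEGF receptor, was at 42.3 to 47.0 CPM in control libraries and 8.30 to 11.8 CPM in Atf3 libraries (log2 fold change -2.14 ± 0.08 SE, edgeR adjusted p = 1.3e-14). Erbb4, a neuregulin receptor, was at 4.91 to 5.80 CPM in control libraries and 0.832 to 1.28 CPM in Atf3 libraries (log2 fold change -2.34 ± 0.13 SE, edgeR adjusted p = 2.3e-12). The Wnt receptor kinase gene Ror2 rose from 6.83 ± 0.540 to 16.5 ± 1.13 CPM (log2 fold change 1.28 ± 0.08 SE, edgeR adjusted p = 1.5e-11), and Fgfr1 rose from 177 ± 4.67 to 281 ± 12.3 CPM (log2 fold change 0.66 ± 0.04 SE, edgeR adjusted p = 1.7e-11).

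Other receptors moved in both directions. Tnfrsf12a, the receptor of the cytokine TWEAK, was at 6.71, 7.89, 6.84, 8.58 and 10.6 CPM in control replicates 1 to 5 and 70.0, 51.4, 71.0, 66.7 and 57.4 CPM in Atf3 replicates 1 to 5. It rose 7.77-fold (log2 fold change 2.96 ± 0.23 SE, edgeR adjusted p = 4.6e-08) and was at 13.1 CPM in the Atf4 line, which differed from the Atf3 line (edgeR adjusted p = 4.0e-06). Tnfrsf25, a death-domain receptor of the same family, rose from 5.36 ± 0.363 to 16.3 ± 1.97 CPM. Chrm3 and Chrm4 encode muscarinic acetylcholine receptors. Chrm3 rose from 4.87 ± 0.237 to 32.3 ± 2.86 CPM (log2 fold change 2.73 ± 0.12 SE, edgeR adjusted p = 4.4e-12), and Chrm4 fell from 12.01 ± 0.919 to 2.36 ± 0.585 CPM (log2 fold change -2.35 ± 0.22 SE, edgeR adjusted p = 1.5e-07). The Wnt receptor gene Fzd1 rose from 32.1 ± 1.16 to 124 ± 14.01 CPM, the Hedgehog co-receptor gene Cdon from 15.6 ± 1.15 to 55.6 ± 4.93 CPM and the adenosine receptor gene Adora2b from 1.10 ± 0.331 to 3.42 ± 0.386 CPM (edgeR adjusted p = 5.5e-09, 3.5e-08 and 3.5e-08). Ackr3, which scavenges the chemokine CXCL12, was at 37.3, 36.8, 35.2, 35.9 and 38.3 CPM in control replicates 1 to 5 and 5.99, 10.2, 5.11, 7.82 and 5.26 CPM in Atf3 replicates 1 to 5 (log2 fold change -2.42 ± 0.26 SE, edgeR adjusted p = 1.9e-06). Ackr1 (an atypical chemokine receptor), Adgrg3 (an adhesion receptor) and Mc5r (a melanocortin receptor) fell with log2 fold changes of -2.88 ± 0.15 SE, -2.37 ± 0.09 SE and -2.70 ± 0.17 SE. Among peptide, adhesion and orphan G protein-coupled receptors 22 of 83 tested members were higher (26.5%) and 43 lower (51.8%), 6 and 18 of them by at least 2-fold. Their median was -0.26 (-0.11 over the 31 of at least 10 CPM). Among cytokine, TNF and Toll receptors 17 of 49 tested members were higher (34.7%) and 18 lower (36.7%), 5 and 8 of them by at least 2-fold. Their median was -0.03 (0.09 over the 23 of at least 10 CPM). Among serine/threonine kinase, Wnt and Hedgehog receptors 16 of 42 tested members were higher (38.1%) and 19 lower (45.2%), 4 and 3 of them by at least 2-fold. Their median was -0.01 (-0.05 over the 33 of at least 10 CPM). Among amine, lipid and nucleotide receptors 19 of 47 tested members were higher (40.4%) and 23 lower (48.9%), 11 and 8 of them by at least 2-fold. Their median was -0.20 (0.12 over the 14 of at least 10 CPM). The 2 risen members with the smallest adjusted p were the adenosine receptor gene Adora1 (1.35 ± 0.06 SE) and the purine receptor gene P2ry1 (1.41 ± 0.07 SE).

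Transcription factor genes as a whole were lower more often than higher, and this came from the zinc finger (Zfp) genes. Of 758 tested factors 220 were higher and 361 lower, 44 and 54 of them by at least 2-fold, with a median of -0.14. Among the Zfp genes, a large family of mostly repressive DNA-binding proteins, 63 of 358 tested members were higher (17.6%) and 206 lower (57.5%), 4 and 7 of them by at least 2-fold. Their median was -0.21 (-0.16 over the 227 of at least 10 CPM). The other 400 factors had shares near those of all genes, with 157 higher (39.25%) and 155 lower (38.75%). By at least 2-fold 40 were higher (10%) and 47 lower (11.75%), beside 7.13 and 10.4% of all genes. The balance of directions over all genes depended on the scaling, as given above. Zfp462 fell from 143.7 ± 9.18 to 50.2 ± 4.98 CPM (log2 fold change -1.52 ± 0.06 SE, edgeR adjusted p = 2.5e-13) and Zfp266 from 151 ± 2.43 to 97.2 ± 4.36 CPM (log2 fold change -0.63 ± 0.03 SE, edgeR adjusted p = 1.8e-12). Mybl2 and E2f1, factors of the G1 to S transition, rose from 7.02 ± 0.794 to 40.4 ± 2.31 CPM (log2 fold change 2.52 ± 0.09 SE, edgeR adjusted p = 2.1e-13) and from 9.40 ± 0.993 to 36.8 ± 2.59 CPM (log2 fold change 1.97 ± 0.07 SE, edgeR adjusted p = 4.2e-15), and were at 38.4 and 35.5 CPM in the Atf4 line. Pou3f1, a POU factor of glial and neural precursors, was at 39.5, 83.2, 67.5, 48.1 and 76.0 CPM in control replicates 1 to 5 and 318, 261, 338, 343 and 267 CPM in Atf3 replicates 1 to 5 (log2 fold change 2.28 ± 0.24 SE, edgeR adjusted p = 1.9e-06). Etv4, an ETS factor that follows FGF signalling, was at 17.3 to 20.999 CPM in control libraries and 77.6 to 94.2 CPM in Atf3 libraries (log2 fold change 2.23 ± 0.11 SE, edgeR adjusted p = 1.1e-10). Gsx1 (a homeobox factor of neural progenitors), Six2 (a homeobox factor) and Nr5a2 (a nuclear receptor) rose from levels of at most 2.22 CPM in any control library, with log2 fold changes of 2.83 ± 0.23 SE, 2.44 ± 0.13 SE and 2.35 ± 0.17 SE.

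Other factors fell. Myt1, a zinc finger factor of neuronal differentiation, was at 29.9, 35.3, 30.9, 33.96 and 34.6 CPM in control replicates 1 to 5 and 3.35, 4.91, 3.55, 4.002 and 3.54 CPM in Atf3 replicates 1 to 5 (log2 fold change -3.09 ± 0.15 SE, edgeR adjusted p = 5.2e-11). Thrb, a thyroid hormone receptor, fell from 38.6 ± 2.16 to 8.50 ± 1.07 CPM (log2 fold change -2.18 ± 0.11 SE, edgeR adjusted p = 1.6e-11), and the bHLH factor Atoh8 fell from 4.73 ± 0.755 to 0.660 ± 0.187 CPM (log2 fold change -2.84 ± 0.24 SE, edgeR adjusted p = 9.6e-09). Among nuclear receptors 11 of 33 tested members were higher (33.3%) and 19 lower (57.6%), 1 and 5 of them by at least 2-fold. Their median was -0.19 (-0.14 over the 20 of at least 10 CPM). Egr3, Nr4a1 and Egr4, factors induced within minutes of a stimulus, had log2 fold changes of -3.08, -3.05 and -2.60, which without control replicates 4 and 5 were -1.62, -1.80 and -0.90. Egr4 then lost its call (edgeR adjusted p = 0.062). In the STAT, IRF, NF-kB and NFAT list 7 of 27 tested members were higher (25.9%) and 14 lower (51.9%), 0 and 5 of them by at least 2-fold. Their median was -0.34 (-0.04 over the 17 of at least 10 CPM). Stat3, the effector of LIF and CNTF signalling, fell from 340.2 ± 12.2 to 169 ± 7.61 CPM (log2 fold change -1.01 ± 0.05 SE, edgeR adjusted p = 3.0e-13), and Stat5b from 79.9 ± 2.32 to 40.5 ± 2.41 CPM (log2 fold change -0.98 ± 0.05 SE, edgeR adjusted p = 1.8e-12). Among forkhead factors 14 of 26 tested members were higher (53.8%) and 5 lower (19.2%), 5 and 3 of them by at least 2-fold. Their median was 0.29 (0.27 over the 14 of at least 10 CPM). Foxm1, a factor of G2 and M phase genes, rose from 50.6 ± 4.76 to 92.3 ± 2.12 CPM, and Foxo4 fell from 54.4 ± 1.95 to 25.4 ± 1.83 CPM. Among homeobox factors 35 of 85 tested members were higher (41.2%) and 27 lower (31.8%), 7 and 6 of them by at least 2-fold. Their median was 0.15 (0.02 over the 40 of at least 10 CPM), which turned negative when 1 CPM in 5 libraries was required. Six4 fell (-1.54 ± 0.07 SE) while Lhx2 rose (0.90 ± 0.05 SE).

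Histone-modifying enzyme genes were called lower more often than higher, while remodellers were mixed. Among histone acetyltransferases and deacetylases 8 of 41 tested members were higher (19.5%) and 25 lower (61%), 0 and 0 of them by at least 2-fold. Their median was -0.19 (-0.19 over the 39 of at least 10 CPM). Kat6b, an acetyltransferase, was at 60.6 to 69.2 CPM in control libraries and 39.1 to 45.9 CPM in Atf3 libraries and the deacetylase gene Sirt2 at 148 to 158 CPM in control libraries and 101 to 110.5 CPM in Atf3 libraries. Kat2a, another acetyltransferase, rose from 67.3 ± 2.08 to 106 ± 4.44 CPM (log2 fold change 0.66 ± 0.04 SE, edgeR adjusted p = 3.9e-12). Brd2, which reads acetylated histones, changed by 0.32 ± 0.03 SE on the log2 scale (248.7 to 310.1 CPM). Among histone lysine methyltransferases and demethylases 22 of 62 tested members were higher (35.5%) and 33 lower (53.2%), 6 and 6 of them by at least 2-fold. Their median was -0.17 (-0.25 over the 50 of at least 10 CPM). The demethylase gene Kdm5b fell from 225 ± 8.30 to 111 ± 4.68 CPM (log2 fold change -1.02 ± 0.04 SE, edgeR adjusted p = 2.4e-14) and the demethylase gene Kdm7a from 60.01 ± 3.25 to 29.3 ± 2.21 CPM, and Kmt5a, which methylates histone H4 around mitosis, rose from 64.3 ± 1.06 to 152 ± 8.50 CPM (log2 fold change 1.24 ± 0.05 SE, edgeR adjusted p = 2.5e-14). Among SWI/SNF, CHD and INO80 remodellers 20 of 52 tested members were higher (38.5%) and 25 lower (48.1%), 3 and 3 of them by at least 2-fold. Their median was -0.08 (-0.02 over the 44 of at least 10 CPM). Ruvbl1, an ATPase of the INO80 complex, rose from 25.9 ± 0.845 to 51.1 ± 1.19 CPM (log2 fold change 0.98 ± 0.04 SE, edgeR adjusted p = 6.6e-14). Chd7, a remodeller needed for neural stem cells, fell from 263 ± 14.9 to 91.6 ± 8.28 CPM (log2 fold change -1.52 ± 0.06 SE, edgeR adjusted p = 1.6e-13).

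Genes of growth, from replication and the nucleolus to nuclear transport, were more often higher than lower. The licensing and replication fork list had the highest median of all lists: 54 of 58 tested members were higher (93.1%) and 2 lower (3.45%), 41 and 0 of them by at least 2-fold. Their median was 1.31 (1.30 over the 53 of at least 10 CPM). The Atf4 line against the same controls had a median of 1.38 for this list, so the rise was not particular to the Atf3 line. Mcm2, a subunit of the replicative helicase, was at 48.3, 43.6, 46.4, 51.2 and 48.7 CPM in control replicates 1 to 5 and 143.7, 132.4, 145, 147 and 141 CPM in Atf3 replicates 1 to 5 (log2 fold change 1.57 ± 0.05 SE, edgeR adjusted p = 4.0e-15). Pold2, a subunit of DNA polymerase delta, changed by 1.76 ± 0.06 SE (19.8 to 67.3 CPM). Among genes of small nucleolar ribonucleoproteins and ribosome assembly 104 of 122 tested members were higher (85.2%) and 13 lower (10.7%), 42 and 1 of them by at least 2-fold. Their median was 0.72 (0.77 over the 119 of at least 10 CPM), and 0.38 in the Atf4 line against the same controls. Fbl (fibrillarin, the methyltransferase of nucleolar RNA) was at 39.7, 37.2, 39.996, 39.7 and 43.3 CPM in control replicates 1 to 5 and 126, 107.1, 123.2, 125 and 119.9 CPM in Atf3 replicates 1 to 5 (log2 fold change 1.59 ± 0.05 SE, edgeR adjusted p = 3.3e-15). Among RNA polymerase I and III subunits 17 of 24 tested members were higher (70.8%) and 2 lower (8.33%), 5 and 1 of them by at least 2-fold. Their median was 0.48 (0.48 over the 23 of at least 10 CPM). Polr3k, a polymerase III subunit, fell from 218 ± 6.60 to 84.6 ± 3.87 CPM (log2 fold change -1.36 ± 0.08 SE, edgeR adjusted p = 1.8e-10). For RNA polymerase II and Mediator 26 of 45 tested members were higher (57.8%) and 7 lower (15.6%), 0 and 0 of them by at least 2-fold. Their median was 0.16 (0.15 over the 44 of at least 10 CPM), near the 0.12 of all genes of at least 10 CPM. Among hnRNP proteins, which package nuclear RNA, 16 of 20 tested members were higher (80%) and 1 lower (5%), 2 and 0 of them by at least 2-fold. Their median was 0.26 (0.26 over the 20 of at least 10 CPM).

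Transport through the nuclear envelope and tRNA modification followed the same direction. Among nucleoporins 22 of 27 tested members were higher (81.5%) and 3 lower (11.1%), 5 and 0 of them by at least 2-fold. Their median was 0.60 (0.61 over the 25 of at least 10 CPM). Nup85, of the outer ring of the pore, was at 17.3 to 21.4 CPM in control libraries and 57.4 to 65.5 CPM in Atf3 libraries (log2 fold change 1.64 ± 0.06 SE, edgeR adjusted p = 8.5e-15). Nup107, its partner in the same ring, changed by 1.27 ± 0.05 SE (22.004 to 53.02 CPM). Tpr, of the nuclear basket, fell from 255 ± 12.7 to 203 ± 15.1 CPM (log2 fold change -0.33 ± 0.07 SE, edgeR adjusted p = 1.8e-04). Among karyopherins and Ran proteins 25 of 27 tested members were higher (92.6%) and 2 lower (7.41%), 5 and 0 of them by at least 2-fold. Their median was 0.53 (0.53 over the 27 of at least 10 CPM). Ran, the GTPase that gives transport its direction, was at 284, 279, 301, 305 and 313 CPM in control replicates 1 to 5 and 749.8, 669, 737, 692 and 718 CPM in Atf3 replicates 1 to 5 (log2 fold change 1.27 ± 0.04 SE, edgeR adjusted p = 5.4e-15), and its partner gene Ranbp1 rose from 34.3 ± 2.10 to 92.8 ± 5.43 CPM. Among tRNA modification enzymes 33 of 54 tested members were higher (61.1%) and 6 lower (11.1%), 6 and 0 of them by at least 2-fold. Their median was 0.37 (0.42 over the 41 of at least 10 CPM). Mettl1, which methylates the variable loop of tRNAs, rose from 6.72 ± 0.444 to 26.9 ± 2.40 CPM (log2 fold change 2.00 ± 0.08 SE, edgeR adjusted p = 2.4e-14). Pus7, a pseudouridine synthase, changed by 1.28 ± 0.05 SE (23.9 to 58.2 CPM). Among kinetochore and spindle checkpoint genes 43 of 51 tested members were higher (84.3%) and 4 lower (7.84%), 4 and 1 of them by at least 2-fold. Their median was 0.49 (0.49 over the 47 of at least 10 CPM). The Atf4 line against the same controls had 0.57 for this list, 0.48 for nucleoporins and 0.36 for karyopherins. Nsl1, which links centromere and microtubule, changed by 1.13 ± 0.06 SE (10.2 to 22.4 CPM). Mad2l2, which despite its name acts mainly in DNA repair and translesion synthesis, went the other way, from 146 ± 3.04 to 46.2 ± 6.36 CPM (log2 fold change -1.66 ± 0.13 SE, edgeR adjusted p = 4.2e-08).

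Mitochondrial genes of import and the citrate cycle were mostly higher and those of fatty acid oxidation mostly lower. Among mitochondrial import and membrane genes 41 of 51 tested members were higher (80.4%) and 6 lower (11.8%), 8 and 0 of them by at least 2-fold. Their median was 0.31 (0.32 over the 48 of at least 10 CPM). Tomm40, the channel of the outer membrane, was at 37.5 to 42.5 CPM in control libraries and 93.1 to 106 CPM in Atf3 libraries (log2 fold change 1.34 ± 0.05 SE, edgeR adjusted p = 1.8e-14). Phb2, a prohibitin of the inner membrane, changed by 1.03 ± 0.04 SE (89.1 to 181 CPM). Among tricarboxylic acid cycle genes 21 of 22 tested members were higher (95.5%) and 0 lower (0%), 1 and 0 of them by at least 2-fold. Their median was 0.34 (0.34 over the 22 of at least 10 CPM). Idh3a, the catalytic subunit of isocitrate dehydrogenase, rose from 71.6 ± 1.67 to 171 ± 13.04 CPM (log2 fold change 1.26 ± 0.05 SE, edgeR adjusted p = 2.1e-14). Idh2, which makes NADPH in mitochondria, changed by 0.71 ± 0.03 SE on the log2 scale (109 to 177 CPM). Among genes of mitochondrial fatty acid oxidation 4 of 19 tested members were higher (21.1%) and 11 lower (57.9%), 0 and 0 of them by at least 2-fold. Their median was -0.15 (-0.17 over the 18 of at least 10 CPM). Acads, a short-chain acyl-CoA dehydrogenase, fell from 80.8 ± 2.81 to 59.4 ± 3.45 CPM (log2 fold change -0.44 ± 0.05 SE, edgeR adjusted p = 2.4e-08). In the one-carbon and methyl transfer list 10 of 12 tested members were higher (83.3%) and 1 lower (8.33%), 4 and 0 of them by at least 2-fold. Their median was 0.75 (0.75 over the 10 of at least 10 CPM). Cbs, which opens the route from homocysteine to cysteine, rose from 13.8 ± 0.698 to 32.7 ± 2.37 CPM (log2 fold change 1.25 ± 0.05 SE, edgeR adjusted p = 6.4e-14), and Amd1, of polyamine synthesis, from 68.5 ± 2.52 to 136 ± 7.07 CPM (log2 fold change 0.99 ± 0.04 SE, edgeR adjusted p = 2.5e-14).

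**Figure D3:**
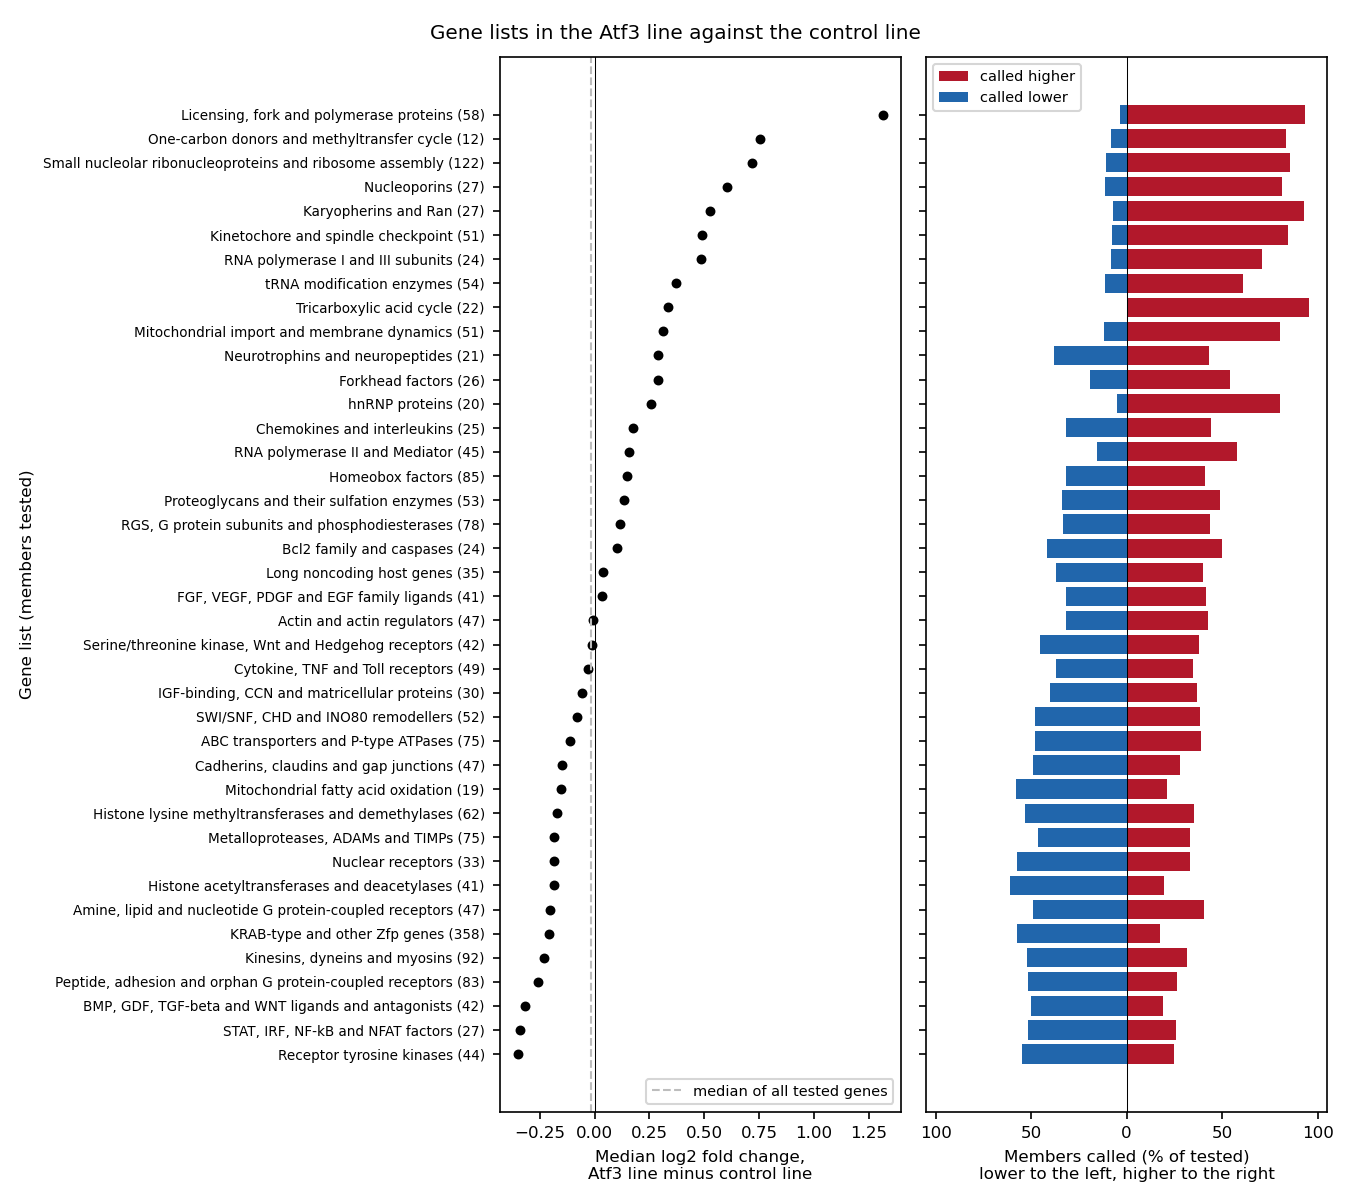
For 40 of the 77 gene lists the left panel gives the median log2 fold change of the tested members, Atf3 line minus control line, and the right panel the percentage of members called higher (red) or lower (blue) in edgeR's test. Replication, one-carbon, nucleolar and nuclear transport lists stand at the top with medians of 0.53 to 1.31. Receptor tyrosine kinases stand at the bottom with -0.35.

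Motor and junction genes, and ABC transporters with P-type ATPases, were called lower more often than higher. Among their members of at least 10 CPM, though, the medians were near 0. Among kinesins, dyneins and myosins 29 of 92 tested members were higher (31.5%) and 48 lower (52.2%), 3 and 19 of them by at least 2-fold. Their median was -0.23 (-0.02 over the 54 of at least 10 CPM). The microtubule motor genes Kif19a and Kif9, both linked to motile cilia, fell from 28.5 ± 0.845 to 4.595 ± 0.489 CPM (log2 fold change -2.63 ± 0.09 SE, edgeR adjusted p = 4.2e-15) and from 7.15 ± 0.285 to 1.28 ± 0.137 CPM (log2 fold change -2.48 ± 0.13 SE, edgeR adjusted p = 8.8e-13). Myo1c, an actin motor, rose from 26.8 ± 1.03 to 62.4 ± 2.82 CPM (log2 fold change 1.22 ± 0.06 SE, edgeR adjusted p = 5.0e-13). Among actin and its regulators 20 of 47 tested members were higher (42.6%) and 15 lower (31.9%), 1 and 4 of them by at least 2-fold. Their median was -0.01 (0.06 over the 41 of at least 10 CPM). Among cadherins, claudins and gap junction genes 13 of 47 tested members were higher (27.7%) and 23 lower (48.9%), 2 and 11 of them by at least 2-fold. Their median was -0.15 (-0.05 over the 21 of at least 10 CPM). Cdh22, a cadherin of the brain, was at 4.75, 5.74, 6.17, 5.16 and 5.84 CPM in control replicates 1 to 5 and 36.5, 32.1, 36.3, 36.7 and 31.2 CPM in Atf3 replicates 1 to 5 (log2 fold change 2.64 ± 0.09 SE, edgeR adjusted p = 4.4e-14), and the desmosome gene Pkp2 fell from 3.97 ± 0.231 to 0.881 ± 0.0507 CPM (log2 fold change -2.17 ± 0.12 SE, edgeR adjusted p = 1.8e-12). Among ABC transporters and P-type ATPases 29 of 75 tested members were higher (38.7%) and 36 lower (48%), 5 and 14 of them by at least 2-fold. Their median was -0.11 (0.01 over the 49 of at least 10 CPM). Solute carriers, another transporter list, had shares near those of all genes, with 76 of 200 tested members higher (38%) and 80 lower (40%). By at least 2-fold 14 were higher (7%) and 24 lower (12%). Abca1, which exports cholesterol to Apoe, was at 154, 165, 143, 138 and 122 CPM in control replicates 1 to 5 and 13.3, 19.1, 15.2, 15.8 and 18.2 CPM in Atf3 replicates 1 to 5 (log2 fold change -3.14 ± 0.12 SE, edgeR adjusted p = 6.7e-12). The plasma membrane calcium pump gene Atp2b4 fell from 5.86 ± 0.465 to 1.68 ± 0.218 CPM (log2 fold change -1.81 ± 0.10 SE, edgeR adjusted p = 1.3e-12).

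Further lists held large changes in both directions. Among metalloproteases, ADAMs and TIMPs 25 of 75 tested members were higher (33.3%) and 35 lower (46.7%), 10 and 11 of them by at least 2-fold. Their median was -0.18 (-0.01 over the 28 of at least 10 CPM). Mmp15 rose from 248 ± 12.6 to 728 ± 47.8 CPM (log2 fold change 1.55 ± 0.06 SE, edgeR adjusted p = 1.8e-14), and Adamts13 fell from 7.45 ± 0.474 to 1.03 ± 0.272 CPM (log2 fold change -2.86 ± 0.16 SE, edgeR adjusted p = 4.0e-12). Serpine2, a protease inhibitor of the brain matrix, rose from 2419.6 ± 73.4 to 4121 ± 69.9 CPM (log2 fold change 0.77 ± 0.03 SE, edgeR adjusted p = 1.8e-14). Among proteoglycans and their sulfation enzymes 26 of 53 tested members were higher (49.1%) and 18 lower (34%), 9 and 5 of them by at least 2-fold. Their median was 0.13 (0.16 over the 33 of at least 10 CPM). Sulf2, which trims heparan sulfate, rose from 378 ± 5.42 to 663 ± 18.98 CPM, and the glypican gene Gpc1 fell from 733 ± 19.0001 to 308 ± 30.5 CPM. Among RGS proteins, G protein subunits and phosphodiesterases 34 of 78 tested members were higher (43.6%) and 26 lower (33.3%), 5 and 11 of them by at least 2-fold. Their median was 0.12 (0.16 over the 44 of at least 10 CPM). Rgs16, a brake on G protein signalling, fell from 4.45 ± 0.432 to 0.473 ± 0.181 CPM (log2 fold change -3.23 ± 0.19 SE, edgeR adjusted p = 6.4e-12). Pde1b, a calcium-dependent phosphodiesterase, fell from 45.1 ± 2.25 to 22.9 ± 2.498 CPM (log2 fold change -0.98 ± 0.06 SE, edgeR adjusted p = 2.2e-11). Among Bcl2 family genes and caspases 12 of 24 tested members were higher (50%) and 10 lower (41.7%), 3 and 3 of them by at least 2-fold. Their median was 0.10 (0.00 over the 23 of at least 10 CPM). Pmaip1 (Noxa, which promotes cell death) rose from 8.57 ± 0.914 to 26.3 ± 1.05 CPM (log2 fold change 1.62 ± 0.08 SE, edgeR adjusted p = 2.3e-12), cytochrome c (Cycs) rose from 102 ± 8.49 to 252 ± 19.2 CPM (log2 fold change 1.31 ± 0.06 SE, edgeR adjusted p = 1.0e-12), and the caspase gene Casp6 fell from 36.5 ± 2.09 to 17.2 ± 1.54 CPM (log2 fold change -1.09 ± 0.09 SE, edgeR adjusted p = 1.3e-08). The medians of the last 3 lists turned negative with plain library totals, so these lists as a whole have no settled direction.

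Noncoding RNAs reached similar sizes. Miat, a long noncoding RNA of neural cells, was at 53.2, 52.5, 45.1, 53.7 and 44.9 CPM in control replicates 1 to 5 and 0.573, 0.910, 0.808, 1.06 and 0.601 CPM in Atf3 replicates 1 to 5. Its fall was the largest among noncoding genes of at least 2 CPM (log2 fold change -5.98 ± 0.19 SE, edgeR adjusted p = 5.0e-13). Neat1, the scaffold of paraspeckles, was at 72.3 to 93.8 CPM in control libraries and 27.6 to 31.0 CPM in Atf3 libraries (log2 fold change -1.55 ± 0.08 SE, edgeR adjusted p = 4.0e-11). Kcnq1ot1, an imprinted antisense RNA, and Mir9-3hg, a host of the neural miRNA miR-9, fell with log2 fold changes of -1.67 ± 0.16 SE and -1.56 ± 0.09 SE. Mx2, annotated as a polymorphic pseudogene, and Tspan32os fell by 2.13 and 1.26. On the rising side Pvt1, the noncoding neighbour of Myc, was at 6.95, 6.55, 7.52, 7.48 and 7.06 CPM in control replicates 1 to 5 and 30.3, 27.5, 34.7, 22.9 and 29.1 CPM in Atf3 replicates 1 to 5 (log2 fold change 2.02 ± 0.11 SE, edgeR adjusted p = 1.9e-11). The small nucleolar RNA host genes Snhg1 and Snhg17 rose from 13.9 ± 0.687 to 38.5 ± 3.63 CPM (log2 fold change 1.47 ± 0.09 SE, edgeR adjusted p = 1.3e-10) and from 13.9 ± 0.721 to 34.2 ± 3.14 CPM (log2 fold change 1.30 ± 0.10 SE, edgeR adjusted p = 2.2e-09). Hectd2os, Ttc39aos1 and Halr1 rose with log2 fold changes of 2.19 ± 0.14 SE, 2.18 ± 0.09 SE and 1.32 ± 0.11 SE. Reads of the opposite strand cannot be told apart here, and 46.1% of the exon bases of Hectd2os, 27.2% of those of Tspan32os and 24.3% of those of Miat lie under another gene. The same share was 25.7% for Ackr1, 23.1% for P2ry1, 20.1% for Adora1, 18.9% for Gpc1, 16.9% for Ranbp1 and 10.1% for Rgs16. Among host genes of small RNAs and other long noncoding genes of a fixed list 14 of 35 tested members were higher (40%) and 13 lower (37.1%), 4 and 7 of them by at least 2-fold. Their median was 0.04 (0.22 over the 19 of at least 10 CPM), which turned negative with upper-quartile scaling.

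No chromosome stood apart as a whole. At 10 CPM or more the median of a chromosome lay between 0.02 (chromosome 1) and 0.20 (chromosome 8), where a log2 fold change of 0.58 would correspond to 1.5-fold. Stretches of neighbouring genes differed more. Among all windows of 25 consecutive tested genes, the central 95% had medians of -0.45 to 0.32. The 3 highest were at chr5:110154400-111761725 (0.60), chr8:121654054-122842072 (0.58) and chr11:116530925-118024011 (0.56). The 3 lowest were at chr1:90958133-92910764 (-0.87), chr18:36763671-37489454 (-0.78) and chr5:123103044-123938388 (-0.77). In the Atf4 line against the same controls all of these windows moved the same way. Their medians there were 0.34, 0.35 and 0.29 for the highest and -0.44, -0.59 and -0.35 for the lowest, in the order given. The windows were chosen as extremes against these same control libraries, so nothing is read from the shared direction. Windows of 15 and of 50 genes ranked the stretches differently, with the highest at chr10:22074237-22444036 (1.36) for 15 genes and chr11:116849901-120047167 (0.37) for 50. That window of 15 genes held scarce genes, with a median level of 1.37 CPM, and 4 of the 15 were coding.

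With TMM scaling some abundant genes were level. Of 2422 genes with at least 100 CPM, 280 had an approximate 95% interval within 0.15 of 0 on the log2 scale. The 6 nearest to 0 were mt-Co3, Actb, mt-Co2, Stard7, Tor1aip2 and Prdx1. Actb (beta-actin) was at 2259.9 to 2689 CPM in control libraries and 2349.5 to 2607 CPM in Atf3 libraries, and the antioxidant enzyme gene Prdx1 at 618 to 661 CPM in control libraries and 606 to 669 CPM in Atf3 libraries. With upper-quartile scaling mt-Co3, Actb and Tor1aip2 lay below 0 by about the shift of all genes given above, and were then called lower. Each of the 6 gained a call under some setting, so their being level rests on the scaling. No gene met a strict on or off rule, at most 3 counts in every library of one line and at least 1 CPM in every library of the other: 0 genes were switched on and 0 switched off by it.

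The response differed by how abundant and how long a gene was. Coding genes at up to 1 CPM had a median of -0.44, with 28.1% of them at least 2-fold lower and 9.64% at least 2-fold higher. The median passed 0 between 3 and 30 CPM and was 0.23 above 300 CPM. Since level and noise go together, gene length was compared only at 10 CPM or more. There the median was 0.22 for genes spanning up to 3 kb and 0.22 for 3 to 10 kb, and fell to -0.07 for 100 to 300 kb and -0.04 beyond. Genes with over 10 kb of exon sequence had -0.16. GC content showed no such trend, with medians of 0.08 to 0.14 over its 6 classes. By biotype, long intergenic noncoding RNAs had a median of -0.34, with 23.2% at least 2-fold lower and 11.7% at least 2-fold higher, and antisense genes -0.34. Most of them are scarce, and at 10 CPM or more the median was -0.28 over 50 long intergenic RNAs (14% at least 2-fold lower), -0.10 over 20 antisense genes and 0.12 over coding genes. The 62 tested small nucleolar RNAs had 0.51 at a median level of 0.311 CPM. The library kit does not target RNAs that short, so their counts may hold reads of their host genes. These classes have no test, since genes are not replicates, and RNA quality was not among the values used here.

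**Figure D4:**
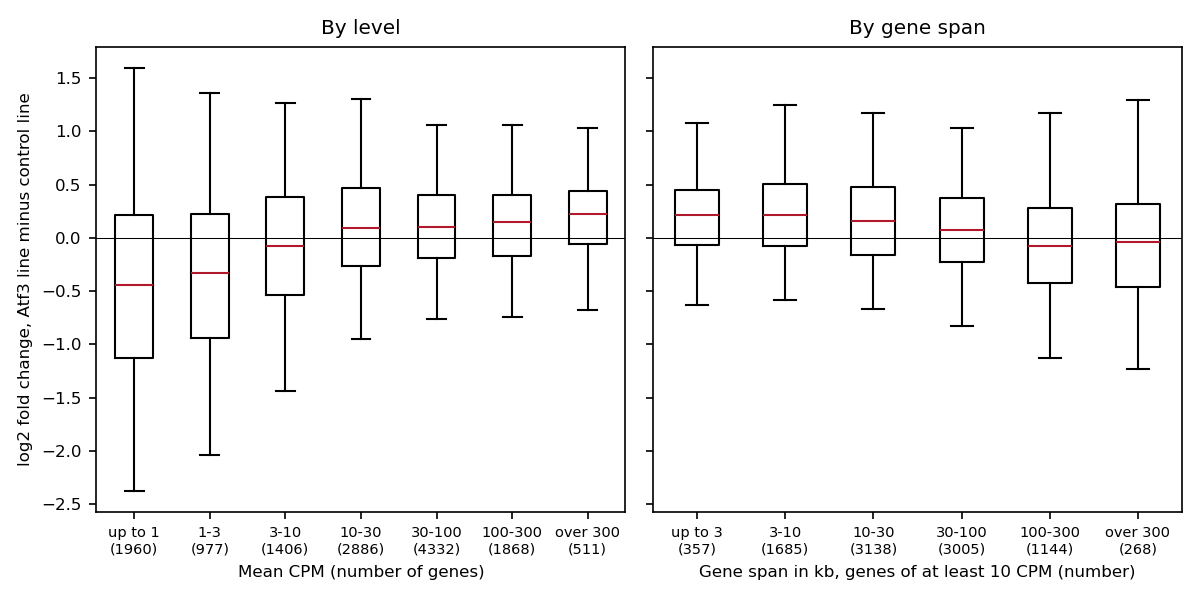
Log2 fold changes, Atf3 line minus control line, of coding genes by mean level (left) and, for genes of at least 10 CPM, by gene span (right). Red lines are medians, boxes span the 25th to 75th percentile and whiskers the 5th to 95th percentile. The median climbs from -0.44 to 0.23 with level and declines from 0.22 to -0.04 with span.

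Promoters were searched for 7 motifs of factors known from stress and growth. The table of RefSeq promoters (GRCm38.p6) reaches from 250 bases before a start to 50 after it and matched 10890 of 13940 tested coding genes. The amino acid response element, searched as TGATGCAA on both strands and bound by Atf4 dimers, was in 57 of these promoters (0.523%). It was in 1.59% of the promoters of genes at least 2-fold higher and 0.650% of those at least 2-fold lower. Without the 50 bases after the start these shares were 1.22 and 0.650%, beside 0.487% of all promoters. Of the 57 genes 29 were higher (50.9%, beside 43.3% of all genes with a promoter) and 21 lower (36.8%, beside 35.7%). By at least 2-fold 13 were higher (22.8%, beside 7.5%) and 6 lower (10.5%, beside 8.48%). The matches of 10 genes of at least 2 CPM that rose at least 2-fold are printed as 30 bases of the gene's strand, 5′ to 3′, with the element or its complement in capitals, as examples of the element in its surroundings. They were chosen after their values were seen, and the sites of the 21 lower genes are not shown. Atf3 is among the risen carriers, and its counts include the cassette's transcript.
Atf3 (chr1:191183425-191183454, minus strand): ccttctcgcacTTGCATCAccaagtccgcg
Chac1 (chr2:119351038-119351067, plus strand): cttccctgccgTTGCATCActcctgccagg
Nupr1 (chr7:126625562-126625591, minus strand): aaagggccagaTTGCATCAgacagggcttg
Slc7a11 (chr3:50443661-50443690, minus strand): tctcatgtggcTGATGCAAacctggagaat
Slc7a11 (chr3:50443642-50443671, minus strand): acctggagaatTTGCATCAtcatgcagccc
Yars (chr4:129189895-129189924, plus strand): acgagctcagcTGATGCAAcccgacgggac
Iars (chr13:49682126-49682155, plus strand): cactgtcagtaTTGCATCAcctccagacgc
Got1 (chr19:43524689-43524718, minus strand): cattgcattggTTGCATCAtacaagcctcc
Tars (chr15:11399655-11399684, minus strand): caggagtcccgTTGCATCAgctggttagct
Slc1a4 (chr11:20332699-20332728, minus strand): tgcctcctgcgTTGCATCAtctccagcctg
Orc2 (chr1:58505330-58505359, minus strand): TTGCATCAtatgcgagcaggtattcgctgt

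Iars, Tars and Yars encode tRNA synthetases, Slc1a4 and Slc7a11 amino acid transporters, Got1 an aspartate aminotransferase, Chac1 an enzyme that breaks down glutathione and Nupr1 a stress-induced chromatin protein, while Orc2 is a subunit of the origin recognition complex. Chac1 was at 0.915, 0.626, 0.826, 0.727 and 0.430 CPM in control replicates 1 to 5 and 8.24, 5.86, 7.96, 7.80 and 6.61 CPM in Atf3 replicates 1 to 5 (log2 fold change 3.37 ± 0.40 SE, edgeR adjusted p = 3.5e-06). Nupr1 rose from 9.24 ± 0.549 to 35.7 ± 1.88 CPM (log2 fold change 1.95 ± 0.11 SE, edgeR adjusted p = 4.7e-11), and the cystine transporter gene Slc7a11, with 2 matches in its promoter, from 5.82 ± 0.483 to 21.4 ± 2.94 CPM (log2 fold change 1.88 ± 0.23 SE, edgeR adjusted p = 5.2e-06). The synthetase genes rose by 1.32 (Tars), 1.62 (Iars) and 1.67 (Yars) on the log2 scale, Got1 by 1.42, Slc1a4 by 1.07 and Orc2 by 1.01. A match is a run of letters and not a bound site.

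Of the other motifs, the E2F site was also in a larger share of promoters of risen than of fallen genes, with 23 of 817 against 6 of 923. In the bases before the start alone it was in 15 promoters of risen genes (1.84%), nearer to the 1.23% of all promoters. Whole windows held a CRE (TGACGTCA) in 3.21% of all promoters, 2.69% of those of genes at least 2-fold higher and 2.28% of those at least 2-fold lower. An AP-1 site (TGANTCA) was in 4.55, 5.14 and 6.07%, an E2F site (TTTCGCGC or TTTGGCGC) in 1.497, 2.82 and 0.650%, and an E-box (CACGTG, bound by Myc) in 9.76, 12.5 and 8.34%. Without the 50 bases after the start the E-box shares were level, at 8.14, 8.08 and 8.13%. The changed CRE (TGACGCAA) was in 0.946, 0.734 and 0.867% and the second form of the amino acid element (TGATGAAA) in 0.542, 0.857 and 0.758%. All motifs were read on both strands, and none contains another.

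The 250 bases before the start are printed for the 3 largest rises and 2 largest falls that the table holds, to show what lies in front of the genes at both ends of the response, in GRCm38.p6 from RefSeq, on the gene's strand with searched motifs in capitals.
Atf3 (chr1:191183334-191183583, minus strand): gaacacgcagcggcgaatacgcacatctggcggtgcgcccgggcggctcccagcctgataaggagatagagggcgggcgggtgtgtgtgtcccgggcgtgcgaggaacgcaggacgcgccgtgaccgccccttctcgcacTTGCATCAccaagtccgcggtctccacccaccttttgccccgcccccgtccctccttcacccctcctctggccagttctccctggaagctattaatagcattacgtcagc
Apln (chrX:48034854-48035103, minus strand): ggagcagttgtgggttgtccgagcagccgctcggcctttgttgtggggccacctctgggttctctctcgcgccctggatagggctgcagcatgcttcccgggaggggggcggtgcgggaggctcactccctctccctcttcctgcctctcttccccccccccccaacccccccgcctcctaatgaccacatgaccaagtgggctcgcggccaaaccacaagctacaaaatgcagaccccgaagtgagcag
Trib3 (chr2:152344061-152344310, minus strand): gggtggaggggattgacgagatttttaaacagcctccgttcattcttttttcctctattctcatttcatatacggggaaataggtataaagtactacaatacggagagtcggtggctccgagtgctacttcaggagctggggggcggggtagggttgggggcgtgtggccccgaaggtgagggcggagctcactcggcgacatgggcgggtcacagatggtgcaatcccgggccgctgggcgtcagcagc
Scg2 (chr1:79440027-79440276, minus strand): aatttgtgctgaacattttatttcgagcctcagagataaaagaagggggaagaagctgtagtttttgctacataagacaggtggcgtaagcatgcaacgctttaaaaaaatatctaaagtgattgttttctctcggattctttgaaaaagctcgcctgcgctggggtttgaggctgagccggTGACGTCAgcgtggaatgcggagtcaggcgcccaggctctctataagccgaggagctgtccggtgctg
Gucy1b2 (chr14:62456290-62456539, minus strand): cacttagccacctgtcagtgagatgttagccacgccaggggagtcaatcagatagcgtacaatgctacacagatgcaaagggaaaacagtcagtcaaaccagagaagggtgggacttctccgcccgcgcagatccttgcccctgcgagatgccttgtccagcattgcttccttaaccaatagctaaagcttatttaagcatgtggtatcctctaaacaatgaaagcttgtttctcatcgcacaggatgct
The Atf3 window holds the amino acid element and the Scg2 window a CRE, whose first base is 68 bases before the start, and the windows of Apln, Trib3 and Gucy1b2 hold none of the searched letters. Of several annotated starts the one nearest to the GENCODE gene start was taken, which for Atf3 is 34706 bases from it. For Nupr1, whose response element site is printed above, it is 5391 bases away.

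Variation within the lines was also unequal. Over 9506 genes of at least 10 CPM the median SD between libraries was 0.0541 on the log2 scale among control libraries and 0.0730 among Atf3 libraries. An SD above 0.5 was reached by 19 control-line genes and by 1 gene of the Atf3 line, Gadd45g. The genes that varied most among control libraries were immediate early genes. Fos was at 20.7, 108, 53.9, 239 and 256 CPM in control replicates 1 to 5 and 31.4, 42.9, 34.5, 67.8 and 45.2 CPM in Atf3 replicates 1 to 5. Control replicates 4 and 5 were highest and replicate 1 lowest, and the Atf3 libraries lay inside the range of the control libraries. Egr3 was at 10.1, 81.1, 30.9, 222 and 216 CPM in control replicates 1 to 5 and 11.46, 10.1, 12.2, 20.3 and 12.4 CPM in Atf3 replicates 1 to 5, again with control replicates 4 and 5 highest and replicate 1 lowest of the line, and Nr4a1 at 16.03, 60.6, 27.0, 155 and 152.9 CPM in control replicates 1 to 5 and 8.50, 9.15, 9.07, 12.99 and 10.1 CPM in Atf3 replicates 1 to 5. Junb, an AP-1 subunit, and Ier2 were at 47.6 ± 31.7 and 141 ± 92.2 CPM in control libraries and 27.2 ± 8.55 and 74.7 ± 23.5 CPM in Atf3 libraries, and were not called (edgeR adjusted p = 0.12 and 0.085). The fall of Fos (log2 fold change -1.61 ± 0.55 SE, edgeR adjusted p = 0.018) was -0.46 ± 0.43 SE, edgeR adjusted p = 0.36 without control replicates 4 and 5. Gadd45g, a stress-inducible growth arrest gene, was at 72.2, 46.9, 52.8, 61.8 and 51.5 CPM in control replicates 1 to 5 and 10.8, 16.9, 6.89, 16.4 and 11.3 CPM in Atf3 replicates 1 to 5 (log2 fold change -2.20 ± 0.28 SE, edgeR adjusted p = 1.1e-05), its lines apart and its values in the Atf3 line spread over more than 2-fold. The labels give no batch, and what sets control replicates 4 and 5 apart was not tested.

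**Figure D5:**
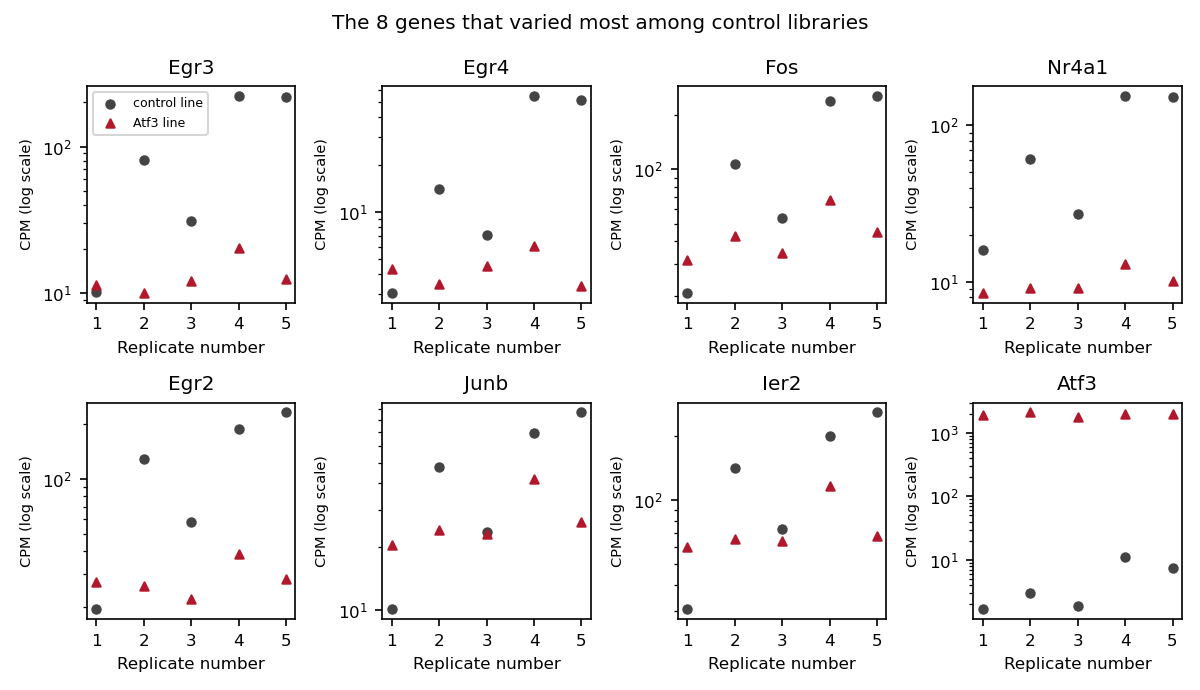
Levels (CPM, log scale) of the 8 genes that varied most among control libraries, by replicate number, with grey circles for the control line and red triangles for the Atf3 line. Replicate numbers do not pair the lines. In Egr3, Egr4, Fos, Nr4a1 and Egr2 control replicates 4 and 5 stand highest and control replicate 1 is the lowest of its line.

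Markers of neural precursors and of the oligodendrocyte lineage were abundant in both lines. Levels of markers below are in CPM of plain library totals, while log2 fold changes are from the fit with TMM. Plain totals place the Atf3 line lower beside the control line than TMM does. Sox2 and Nes, markers of precursors, were at 237 and 689 CPM in control libraries and 211.99 and 963 CPM in Atf3 libraries, while Prom1 was near 0 in both. Sox2 was not called (log2 fold change -0.02 ± 0.04 SE, edgeR adjusted p = 0.61). The summed level of 9 precursor markers, of which 8 were tested, was 4026 to 4235 CPM in control libraries and 4384 to 4501 CPM in Atf3 libraries, but its members moved in both directions. Nes, Fabp7 and Slc1a3 were higher (0.62 ± 0.08 SE, 1.18 ± 0.05 SE and 0.86 ± 0.06 SE on the log2 scale), and Vim and Notch1 lower (-0.48 ± 0.05 SE and -0.81 ± 0.08 SE). The 7 oligodendrocyte lineage markers were all lower, with sums of 4020.0 to 4554 CPM against 2765 to 3529.7 CPM, most of these counts being of Olig1 and Olig2, with Sox10 and Mbp under 1 CPM. The 4 tested astrocyte markers of 5 were lower, with sums of 233 to 269 against 96.8 to 108 CPM, and Gja1, a defining marker, was near 0. Neuronal markers summed to 1694 to 1902 against 1266 to 1482 CPM, most of these counts being of Map2, with Rbfox3 and Snap25 under 1 CPM. Of the 6 neuronal markers Tubb3, Map2 and Dcx were lower (-2.44 ± 0.12 SE, -0.22 ± 0.05 SE and -0.93 ± 0.16 SE) and Syt1 higher (1.65 ± 0.12 SE). Both tested ependymal markers of 3 were higher, with sums of 21.2 to 25.05 against 28.5 to 38.2 CPM. Nearly all of these counts were of Foxj1, with Ccdc153 and Tmem212 under 1 CPM, so the sum describes 1 gene. Microglial, endothelial and mural markers summed to at most 1.496, 6.29 and 1.04 CPM in any library. In bulk RNA, fewer cells of a type and less RNA of it per cell cannot be told apart, and their part in the falls of Apoe, Cnp, Draxin and other glial and neuronal genes was not tested.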

How the data were processed

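The 15 RNA samples of 3 lines were sequenced as read pairs of 150 bases from libraries that do not mark strand, per the labels' protocols. The deposited table holds the authors' raw counts, whole and not normalized, with 1 row per gene. The submitters' processing notes name STAR, edgeR and mm10. How reads were assigned to genes, with which strand option and annotation release, is not given in the sources used here. Of 55416 identifiers 35525 had a count.

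Counts of all 15 libraries were fitted with edgeR 4.0.16 in R 4.3.3 (TMM scaling, filterByExpr, robust quasi-likelihood), with the contrast Atf3 minus control and Benjamini-Hochberg adjustment over the 18244 genes kept. SE is the size of the log2 fold change divided by the root of F. Genes were annotated with GENCODE M21 (GRCm38), which held 18146 of them. The check for repeated libraries found none, since replicates of a line differed beyond counting noise (chi-square per degree of freedom 5.47 to 22.6). The fit was also run on simulated counts in which few genes changed. That run cannot show how the scaling behaves when most genes differ.

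Named genes were taken by a rule. It took Atf3 and Atf4, and the 12 largest rises and falls among called coding genes of at least 4 CPM whose lines do not overlap. Among the same genes it took the 10 and 10 of at least 100 CPM. At 2 CPM or more, the 6 and 6 among noncoding genes and the 8 and 8 among transcription factors were taken. The same limit held for the 6 and 6 among secreted factors and receptors. The rest were a subset of each list's 2 risen and 2 fallen members of smallest adjusted p, and 6 level genes. Predicted genes were left out. Some genes the rule names and 1 response element site are not reported here. The comparison, the rule and the 77 lists were chosen with earlier results of these data known. Stray list members were removed and lists were limited to coding genes after values had been seen, and the classes of level and length, the ranking of variable genes, the choice of response element sites and the naming of Fos, Egr2, Junb, Ier2, Gadd45g and the synthetase genes also followed sight of the data. Alternatives were DESeq2 1.42.0, limma-voom (limma 3.58.1), other scalings, filters, libraries, windows and a replicate block. With the depth given below, the number of libraries and not counting error sets the precision of abundant genes.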

Additional observations from a re-analysis of the deposited data

Results flagged for a closer look

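In 12 of 358 groups of 5 libraries examined, 1 library lay apart from the other 4 by a gap of more than 0.71 of the group's range. By chance this happens in about 1 of 20 groups. Each value below is set beside the range of the other 4 libraries of its line.

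Atf3 replicate 4 was the library concerned in 6 of these groups. It held the highest levels of 4 immediate early genes in its line, with Fosb at 2.25 CPM beside 1.15 to 1.46 CPM and Egr3 at 20.3 CPM beside 10.1 to 12.4 CPM. Junb was at 42.01 CPM beside 20.5 to 26.3 CPM in it, and Ier2 at 116 CPM beside 59.8 to 67.6 CPM. The same library was lowest in mt-Co3, a mitochondrially encoded subunit of cytochrome oxidase, at 2914 CPM beside 3371 to 3533 CPM, and in Tor1aip2, at 255 CPM beside 270.3 to 277 CPM.

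Atf3 replicate 2 was lowest in Mybl2, at 36.3 CPM beside 40.98 to 41.9 CPM. Atf3 replicate 3 was highest in Adora1, at 89.4 CPM beside 80.04 to 81.6 CPM, and in Bmp7, at 64.9 CPM beside 52.4 to 55.9 CPM. Atf3 replicate 5 was lowest in Six2, at 3.07 CPM beside 3.46 to 3.61 CPM. In the control line, replicate 3 was highest in Cdt1, at 3.46 CPM beside 2.65 to 2.79 CPM, and replicate 2 in Dscaml1, at 15.3 CPM beside 13.6 to 13.97 CPM.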

How the results depend on the processing

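The number of called genes, 13328, was between 13114 and 14358 with DESeq2, limma-voom, RLE, upper-quartile scaling, plain totals, no filter, the 10 libraries alone, a replicate block or no robust estimation, and 11265 of fewer genes tested with 1 CPM required in 5 libraries. Leaving out 1 library gave 12990 to 13307 called genes and 3227 to 3448 with at least 2-fold change. Without control replicates 4 and 5 there were 12836, and without Atf3 replicates 3 and 5, an alternative added after seeing the data like the fit without robust estimation, 12833. Genes with at least 2-fold change numbered 4802 without a filter (3134 lower) and 1874 (998 lower) with 1 CPM required, settings that change how many scarce genes are tested.

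Of the 77 lists 45 had a median above 0, but 26 with upper-quartile scaling and 25 with plain totals, which shift all genes down. Lists with medians near 0, such as the growth factor ligands and the long noncoding genes above, were among those that turned. Of the reported lists with larger medians, both scalings reversed the Bcl2 family and caspases (-0.0160 and -0.0336). Both also reversed RGS, G protein subunits and phosphodiesterases (-0.00450 and -0.0219). Plain totals reversed proteoglycans and their sulfation enzymes as well (-0.00507). The 1 CPM filter reversed Bcl2 family and caspases (-0.0611) and homeobox factors (-0.0391). The level genes mt-Co3, Actb and Tor1aip2 became -0.12, -0.12 and -0.12 with upper-quartile scaling and -0.14, -0.14 and -0.14 with plain totals, and mt-Co2 -0.14. Of the 179 named genes 11 lost or gained a call under some setting (Fos, Egr4, Junb, Ier2, Stard7, Prdx1, Sox2, mt-Co3, Actb, Tor1aip2 and mt-Co2).

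The highest and lowest windows were 1.36 and -1.62 with 15 genes, at median levels of 1.37 and 0.590 CPM. With 50 genes the highest was 0.37. The E-box share among genes at least 2-fold higher was 8.08% in the bases before the start. Replicate numbers do not pair the lines: deviations of same-numbered libraries correlated at -0.08 to 0.05, 0 of 5 control and 1 of 5 Atf3 libraries correlated best with the library of their own number, and the replicate block left 13114 called genes.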

Other observations

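In a principal component analysis of log2 CPM of the 10 libraries, the first component held 76.8% of the variance and separated the lines. The second held 3.92% and set Atf3 replicates 3 (-18.6) and 5 (-19.6) apart from replicates 1 (6.75), 2 (9.62) and 4 (22.2), while control libraries lay between -8.46 and 8.08. The labels give nothing that divides these libraries.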
